A study of Mus musculus with 24 samples.

Results

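The spindle assembly checkpoint was followed here as 10 genes taken by name from the 55471 annotated genes of the tables: *Ttk*, *Bub1*, *Bub1b*, *Bub3*, *Mad1l1*, *Mad2l1*, *Cdc20*, *Aurkb*, *Aurkc* and *Incenp*. All 10 matched 1 Ensembl gene each and all 10 passed the filter on low counts in every fit of the m6A experiment. The study followed mRNA and its N6-methyladenosine (m6A) through the maternal-to-zygotic transition of the mouse, in which transcripts stored in the egg are cleared and the genome of the embryo is switched on. SLIM-seq, an antibody pulldown of m6A-bearing RNA for small samples, was run on MII oocytes (eggs arrested at metaphase of meiosis II), late 1-cell (L1C) embryos and late 2-cell (L2C) embryos, with 3 IP libraries and 3 input libraries per stage. An input library holds RNA that was not passed over the antibody. It therefore serves both as the reference of the IP and as the RNA-seq of its stage. The second experiment used L2C embryos injected as zygotes, in 3 libraries with Cas13d mRNA together with crRNAs that target *Ythdc1* (KD) and in the other 3 with the Cas13d mRNA only (Ctrl). YTHDC1 is a nuclear protein that binds m6A. Oocytes came from young superovulated wild-type B6D2F1 females, and embryos from superovulated B6D2F1 females mated with B6D2F1 males. The embryos were cultured in vitro after collection, and each library pools oocytes or embryos. The knockdown therefore starts in the zygote and not in the oocyte, and Cas13d cuts RNA and not the gene.

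The checkpoint holds a dividing cell in metaphase until every chromosome is attached to the spindle. At an unattached kinetochore TTK (also called MPS1) phosphorylates the scaffold that recruits BUB1, BUB3 and BUBR1, the product of *Bub1b*. MAD1 and MAD2 (*Mad1l1*, *Mad2l1*) are then loaded there, and MAD2 binds CDC20 together with BUBR1 and BUB3, which keeps CDC20 from activating the anaphase-promoting complex (APC/C). The chromosomal passenger complex, with a kinase, INCENP as its scaffold, survivin and borealin, releases faulty attachments. Its kinase is AURKB in most dividing cells, whereas AURKC is best known from germ cells and the earliest embryo.

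Short runs of transcript sequence are shown first for the genes on which the results turn. The motif TTTTAT, read on the transcript strand, is the usual form of the cytoplasmic polyadenylation element, a site in the 3' end of many stored maternal mRNAs. In the principal GENCODE M21 transcripts it lies somewhere in the 3' UTR of *Bub1b*, *Mad2l1*, *Ttk*, *Cdc20*, *Aurkb* and *Aurkc*. The share was 54.8% of 14082 tested genes with a 3' UTR of at least 100 bases, more than the 65 bases of *Cdc20*. Within the last 100 bases it lies in 4 of the 10 genes, against 14.7% of the same 14082 genes. Those 4 genes were *Bub1b*, with 2 separate copies, *Cdc20*, with 2 copies that overlap by 1 base, and *Aurkb* and *Aurkc*, with 1 copy each. Each site is given 5' to 3' with 12 bases on either side (of the first copy in *Cdc20*) and every copy of the motif in capitals, and all lie in the 3' UTR in GRCm38.
Bub1b, chr2:118641521-118641550, plus strand: tctcttttgtaaTTTTATaacatgtactct
Bub1b, chr2:118641553-118641582, plus strand: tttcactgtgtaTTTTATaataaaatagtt
Cdc20, chr4:118432923-118432952, minus strand: ttcctttcttgtTTTTATTTTATtttttct
Aurkb, chr11:69051616-69051645, plus strand: tgaagaacaacaTTTTATaataaagtctta
Aurkc, chr7:7003036-7003065, plus strand: gcttgttttctcTTTTATgaagtgatgtta

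The motif GGACT, on the same strand, is the most familiar form of the sequence at which m6A is placed, and 92.4% of the 14082 transcripts hold it at least 1 time, at a median of 1.06 per kb. *Bub1* holds 1 such site, or 0.292 per kb, and *Ttk* holds 1, or 0.348 per kb. *Cdc20* holds 0, and *Incenp* holds 8, or 2.472 per kb. The single sites of *Bub1* and *Ttk* are shown because the IP of the first lay above input and that of the second below it. A coding site of *Aurkb* and one of *Aurkc* follow, as the levels of these kinases are compared further on. All 4 lie in coding exons in GRCm38, with every copy of the motif in capitals, of which the stretch of *Aurkc* holds 2. A match says only that these letters are present, not that the site is methylated.
Bub1, chr2:127806300-127806328, minus strand: aaacttctctctGGACTttctaagccagt
Ttk, chr9:83854888-83854916, plus strand: caacagcagcagGGACTcagcactcctct
Aurkb, chr11:69050314-69050342, plus strand: gtgcggcacgctGGACTatctgcccccag
Aurkc, chr7:7002369-7002397, plus strand: gtgtgGGACTctGGACTacttgcccccgg

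Total estimated counts lay between 11107421 and 39739950 per SLIM-seq library, and total exon counts between 8696476 and 14500548 in the 5 injected libraries that cover the whole annotation. The counts of KD replicate 3 end on chromosome 7, so *Ttk*, *Bub3*, *Aurkb* and *Incenp*, which lie beyond, were compared between 2 KD and 3 Ctrl libraries. Levels are CPM, the count of a gene per 1000000 counts of its library after TMM, the scaling of edgeR, and are relative to all counted RNA and not to the embryo. In bulk samples fewer cells of a type and less RNA per cell cannot be told apart. The stages carried their markers: the summed CPM of 9 oocyte transcripts was 12100 to 13600 in MII inputs and 768 to 797 in L2C inputs, and that of 6 transcripts of the 2-cell embryo was 7.85 to 8.86 and 287 to 406. The summed level of 8 cumulus cell markers was 46.6 to 57.2 CPM in MII inputs, 30.0 to 34.9 in L1C inputs and 2.89 to 3.8 in L2C inputs, with *Ptx3* at 0 throughout the inputs. Its part in the changes between stages was not tested. *Ythdc1* itself fell by 1.00 (log2, edgeR adjusted p 1.3e-10, SE 0.06) in KD, from 994.4 to 1098 CPM in Ctrl to 518.9 to 540.7 CPM.

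Between MII and L1C, 4 of the 10 genes rose (*Ttk*, *Bub1*, *Bub3*, *Aurkb*), 5 fell (*Bub1b*, *Mad1l1*, *Cdc20*, *Aurkc*, *Incenp*) and *Mad2l1* did not pass the test. From L1C to L2C, 4 rose (*Mad1l1*, *Cdc20*, *Aurkb*, *Incenp*) and the other 6 fell. The calls are those of the quasi-likelihood test of edgeR at a Benjamini-Hochberg adjusted p under 0.05, with 3 inputs per stage. Over all 19903 genes tested, 31.9% were higher and 24.3% lower in the first step, and 44.1% and 38.8% in the second, so being called is by itself common here. The median log2 change of the 10 genes was -0.28 and then -0.63, beside 0.16 and 0.17 over all genes. Both steps use the L1C inputs, so their values are set side by side for each gene and the share of genes that turn between them is not read as a result. From MII to L2C 4 of the 10 genes rose (*Bub1*, *Cdc20*, *Aurkb*, *Incenp*) and 6 fell, beside 47.5% and 37.1% of all genes, and with library size alone the log2 change of a gene shifted by a median of 0.14 in that comparison. Groups did not overlap for 9 of the 10 genes in the first step (61.2% of all genes) and for 9 in the second (84.2%).

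**Figure D1:**
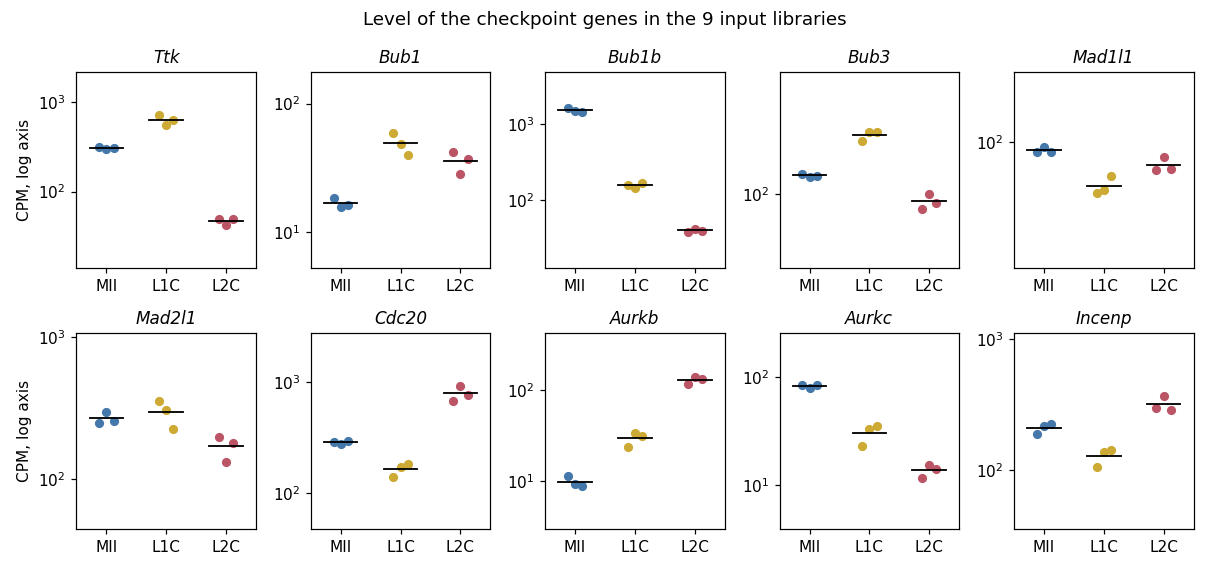
CPM (log axis, a range of its own in each panel) of the 10 checkpoint genes in the 9 input libraries, with 1 point per library, 3 per stage, and a line at the mean. *Bub1b* falls from 1478 to 1648 CPM at MII to 37.59 to 41.83 CPM at L2C, while *Aurkb* climbs from 8.847 to 11.29 CPM to 115.3 to 140.5 CPM.

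Of the 3 genes for kinases or kinase-like proteins of the checkpoint, *Ttk* and *Bub1* rose and then fell, and *Bub1b* fell in both steps. *Bub1b* stood at 1648, 1506 and 1478 CPM in the 3 MII inputs, 156.2, 143.7 and 166.7 CPM at L1C and 37.59, 41.83 and 39.26 CPM at L2C. No library of one stage came near those of the next. The log2 change was -3.31 (edgeR adjusted p 8.5e-11, SE 0.12) and then -1.98 (edgeR adjusted p 8.5e-10, SE 0.12), and over both steps -5.29 (SE 0.13), a 39-fold lower level. Among 19903 genes ranked by log2 change, *Bub1b* was number 120 from the lowest in the first step. *Ttk*, the kinase that starts the signal, stood at 312.5, 300.6 and 307.5 CPM at MII, 726.9, 562.4 and 624.0 CPM at L1C and 49.79, 41.83 and 49.28 CPM at L2C. Every L1C library lay above every MII library and every L2C library below both. Its log2 change was 1.06 (edgeR adjusted p 7.7e-06, SE 0.12) and then -3.76 (edgeR adjusted p 1e-11, SE 0.14), a 13.6-fold lower level at L2C than at L1C. *Bub1*, the kinase that marks the centromere for the passenger complex, was low at MII with 18.31, 15.78 and 16.29 CPM, stood at 58.79, 48.6 and 39.51 CPM at L1C and at 41.81, 28.27 and 36.9 CPM at L2C. The rise was 1.54 (log2, edgeR adjusted p 7.5e-06, SE 0.18). The L1C and L2C libraries of *Bub1* overlapped, and the later fall of 0.46 (edgeR adjusted p 0.025, SE 0.17) did not pass with DESeq2 (adjusted p 0.13), with library size alone (0.074) or without L1C input replicate 1 (0.097) or L2C input replicate 2 (0.11).

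**Figure D2:**
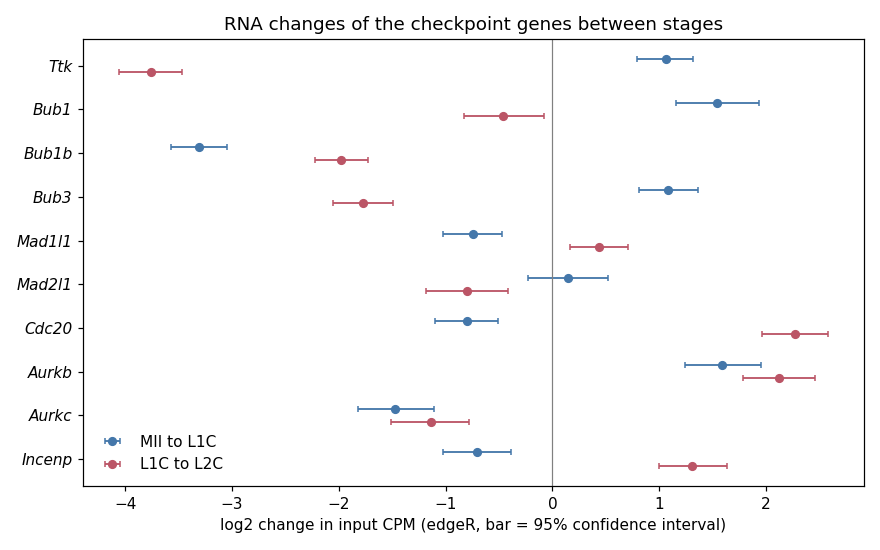
Log2 change in input CPM from MII to L1C (blue) and from L1C to L2C (red) for each gene, with the edgeR estimate as a point and its 95% confidence interval as a bar (3 inputs per stage). Only *Mad2l1* from MII to L1C has an interval that spans 0, from -0.23 to 0.52, and the estimates range from -3.76 for *Ttk* to 2.27 for *Cdc20*, both from L1C to L2C.

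Among the genes of the inhibitory complex and its target, *Cdc20* ended highest in CPM of the inputs. In exon counts of Ctrl L2C embryos, not divided by length, *Mad2l1* lay above *Cdc20*, with means of 401.0 and 238.0 CPM. In the inputs *Cdc20* stood at 286.6, 277.4 and 294.6 CPM at MII, 140.1, 169.4 and 182.3 CPM at L1C and 680.3, 924.8 and 767.0 CPM at L2C. The 3 stages did not overlap, and the log2 change was -0.80 (edgeR adjusted p 0.00021, SE 0.14) and then 2.27 (edgeR adjusted p 1.8e-09, SE 0.14). *Mad2l1*, the protein that captures CDC20, stood at 246.8, 296.3 and 256.9 CPM at MII, 353.7, 306.6 and 224.8 CPM at L1C and 197.8, 132.7 and 178.3 CPM at L2C. Its MII and L1C libraries overlapped (log2 change 0.15, 95% confidence interval -0.23 to 0.52, edgeR adjusted p 0.5), and all 3 L2C libraries lay below both (-0.80 from L1C, edgeR adjusted p 0.00072, SE 0.18). *Bub3*, the adaptor that carries BUB1 and BUBR1 to the kinetochore, stood at 146.7, 139.0 and 139.9 CPM at MII, 267.2, 315.1 and 318.8 CPM at L1C and 77.14, 101.6 and 85.72 CPM at L2C. The rise was 1.08 (log2, edgeR adjusted p 8.2e-06, SE 0.13) and the later change -1.77 (edgeR adjusted p 1.1e-08, SE 0.13). The counts cover whole gene spans, and *Bub3* lies inside the annotated span of *Fgfr2* on the other strand. Counts over that span moved the same way, from 113.9 to 130.4 CPM at MII to 1518 to 1770 CPM at L1C and 430.2 to 502.3 CPM at L2C, although exon counts of *Fgfr2* were only 1.148 to 1.773 CPM in Ctrl L2C embryos. Their part in the values of *Bub3* was not tested.

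*Mad1l1*, the partner that places MAD2 at the kinetochore, stood at 86.88, 92.09 and 85.71 CPM at MII, 47.88, 49.71 and 60.43 CPM at L1C and 66.81, 79.71 and 67.48 CPM at L2C. The log2 change was -0.74 (edgeR adjusted p 0.00024, SE 0.13) and then 0.44 (edgeR adjusted p 0.006, SE 0.13), and the second did not pass when all 18 libraries were fitted together (0.20, adjusted p 0.15). From MII to L2C it fell by 0.31 (edgeR adjusted p 0.037, SE 0.13), which did not pass with DESeq2 (adjusted p 0.14), with library size alone (0.24) or without MII input replicate 1 (0.054) or 2 (0.1) or L2C input replicate 1 (0.11) or 3 (0.1). The span of *Mad1l1* covers 312864 bases with 5 other genes in it, and introns are counted. Scaled to the same total, its L2C inputs gave 75.3 CPM over the span where Ctrl embryos gave 7.82 CPM over exons, a ratio of 9.62 beside a median of 1.03 over 12910 genes. The ratio was 5.45 for *Aurkb*, 3.48 for *Incenp* and 3.44 for *Cdc20*, from 0.439 to 1.67 for the other 6 genes.

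In the inputs the kinases of the passenger complex changed in opposite directions. *Aurkc* stood at 85.76, 80.25 and 85.6 CPM at MII, 22.97, 33.0 and 35.2 CPM at L1C and 11.62, 15.47 and 14.22 CPM at L2C. It was lower at each stage than in any library of the stage before (log2 -1.47, edgeR adjusted p 5.7e-06, SE 0.17, then -1.14, edgeR adjusted p 2e-05, SE 0.17). *Aurkb* stood at 11.29, 9.389 and 8.847 CPM at MII, 23.81, 34.02 and 31.59 CPM at L1C and 115.3, 140.5 and 133.4 CPM at L2C. Each stage lay above the one before without overlap (log2 1.59, edgeR adjusted p 2.1e-06, SE 0.16, then 2.12, edgeR adjusted p 1.2e-08, SE 0.16). Per kb of exon the ratio of *Aurkb* to *Aurkc* was 0.0534 to 0.068 in MII inputs, 0.464 to 0.536 in L1C inputs and 4.7 to 5.13 in L2C inputs. In the injected L2C embryos, counted over exons alone, it was 0.72 to 0.996 in Ctrl and 1.1 to 1.11 in KD. The inputs and the injected embryos differ in the embryos as well as in the kind of count, and the part of either in these ratios was not tested. *Incenp*, the scaffold that both kinases bind, stood at 187.6, 217.7 and 224.9 CPM at MII, 105.7, 136.6 and 143.6 CPM at L1C and 299.0, 372.2 and 286.7 CPM at L2C. Its stages did not overlap, with a log2 change of -0.71 (edgeR adjusted p 0.00095, SE 0.15) and then 1.31 (edgeR adjusted p 1.1e-06, SE 0.15).

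**Figure D3:**
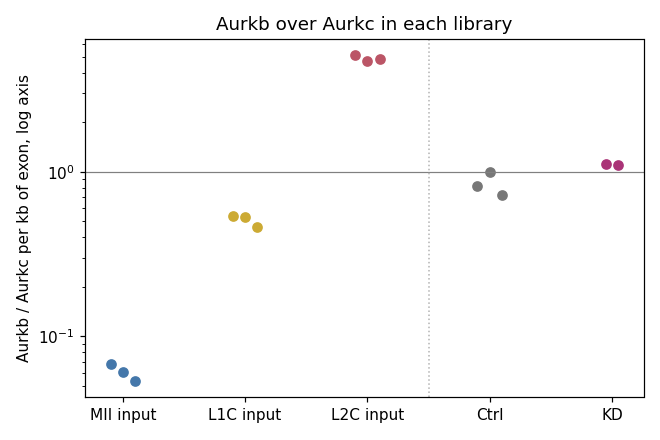
Ratio of *Aurkb* to *Aurkc* CPM, each divided by its kb of exon, on a log axis, with 1 point per library. The inputs, left of the dotted line, were counted over whole gene spans and climb from 0.0534 at the lowest MII library to 5.13 at the highest L2C library, whereas Ctrl (0.72 to 0.996) and KD (1.1 to 1.11) were counted over exons.

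Per kb of exon, *Bub1b* had the highest level of the 10 at MII with 361 ± 21.3 CPM per kb (SD, n = 3), followed by *Cdc20* with 153 ± 4.6 and *Ttk* with 62.4 ± 1.22. *Bub1* at 3.86 ± 0.307 and *Aurkb* at 3.34 ± 0.435 were lowest and overlapped each other, while every other pair of neighbours in the MII order was separate. At L1C *Ttk* led with 130 ± 16.9 and *Cdc20* came next with 87.8 ± 11.6. The middle of that order, *Bub3*, *Bub1b*, *Mad2l1* and *Incenp*, overlapped from one to the next. At L2C *Cdc20* led with 423 ± 66.4, before *Incenp* with 73.8 ± 10.7 and *Aurkb* with 44.0 ± 4.42, and *Ttk*, *Bub1b*, *Aurkc* and *Bub1* overlapped at the bottom, between 8.19 and 9.55 on average. These levels hold intronic counts over exon lengths. In Ctrl L2C embryos, from exons alone, *Cdc20* was highest as well with 127 ± 10.2, but *Mad2l1* came second with 47.8 ± 3.11 and *Mad1l1* last with 2.1 ± 0.376. The 3 genes whose course over the 9 inputs was most like that of *Bub1b*, by the mean absolute difference of centred log2 CPM, were *Gdf9* (0.27), *Bin2* (0.27) and *Gm1070* (0.29).

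The m6A comparison set IP against input at each stage, on the CPM scale of all 18 libraries, with 21950 genes tested. A log2 IP/input below 0 means a ratio of pulldown to input lower than that of the reference set of genes that TMM uses. It does not mean that the RNA carries no m6A. IP and input were both counted over whole gene spans, introns included, so the ratio is not that of the mRNA alone. The part of intronic counts in it was not tested. *Ttk*, *Bub1b*, *Mad1l1*, *Cdc20* and *Incenp* lay below input at all 3 stages, *Bub1* was the single gene called above it at any stage, and *Mad2l1* and *Aurkc* were called at none, although with library size alone as the scale *Mad2l1* passed above input at L1C (0.54) and L2C (0.53) and *Aurkc* at L1C (0.44). At MII 1 of the 10 genes was above input and 5 were below, beside 17.7% and 21% of all genes. At L1C the counts were 0 and 5 in edgeR, beside 15.8% and 18.2%, and the number above input was 0 at an unadjusted P under 0.05 and with DESeq2 too, and 3 with library size alone. At L2C they were 1 and 7, beside 22% and 22%, with *Bub3* and *Aurkb* added to those below. The median log2 IP/input of the 10 was -0.42, -0.39 and -0.74 at the 3 stages, and that of all genes 0.00, 0.07 and 0.09. On that other scale the log2 IP/input of a gene shifted by a median of 0.24, 0.30 and 0.25.

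**Figure D4:**
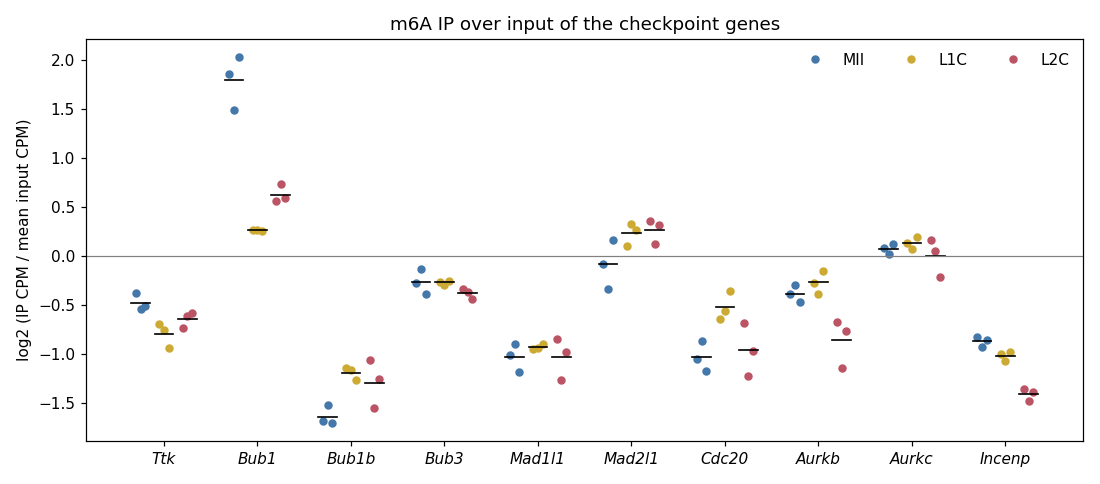
Log2 of the CPM of each IP library over the mean CPM of the 3 inputs of its stage, for MII (blue), L1C (yellow) and L2C (red), with a line at the mean of the 3 points. *Bub1* stands above 0 with 1.49 to 2.03 at MII and 0.26 to 0.27 at L1C, and *Bub1b* lies lowest at MII, between -1.70 and -1.52.

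*Bub1* held 22.41, 18.93 and 19.38 CPM in MII inputs and 73.71, 56.87 and 82.88 CPM in MII IPs. The IPs lay above all inputs, with a log2 IP/input of 1.81 (edgeR adjusted p 9.2e-08, SE 0.17), a 3.51-fold difference. At L1C the inputs held 67.32, 55.25 and 44.4 CPM and the IPs 66.91, 67.12 and 66.84 CPM, which overlap (0.27, 95% confidence interval -0.08 to 0.61, edgeR adjusted p 0.24). At L2C the inputs held 40.48, 26.79 and 35.73 CPM and the IPs 50.48, 57.27 and 51.52 CPM, and the IPs were again above every input (0.63, edgeR adjusted p 0.0051, SE 0.17). Thus the IP libraries stayed between 50.48 and 82.88 CPM while the inputs ran from 18.93 to 67.32 CPM. The call at L1C, unlike the other 2, depended on the scale, since library size alone gave 0.57 (adjusted p 0.011).

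*Bub1b* showed the opposite. MII inputs held 2017, 1807 and 1759 CPM and MII IPs 580.5, 647.9 and 574.5 CPM, a log2 IP/input of -1.63 (edgeR adjusted p 2e-09, SE 0.12). It remained below input at L1C (-1.19, edgeR adjusted p 2.2e-07, SE 0.12) and at L2C (-1.26, edgeR adjusted p 1.3e-07, SE 0.12), with no overlap at either stage. *Incenp* lay below input at each stage, with log2 IP/input of -0.86 (SE 0.12), -1.01 (SE 0.12) and -1.40 (SE 0.12) at MII, L1C and L2C. Its L2C inputs held 289.4, 352.7 and 277.6 CPM and its L2C IPs 120.1, 111.0 and 118.0 CPM, well apart. *Mad1l1* was near -1 throughout (-1.02, -0.92 and -1.01), and *Cdc20* lay at -1.02, -0.51 and -0.94, where the L1C value did not pass with library size alone (-0.21, adjusted p 0.23). *Ttk* lay at -0.47, -0.79 and -0.64, where the MII value did not pass with library size alone (-0.23, adjusted p 0.11).

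*Bub3* was below input at L2C (-0.38, edgeR adjusted p 0.0087, SE 0.11), a call lost with library size alone (-0.12, adjusted p 0.36) and without L2C input replicate 2 (-0.28, adjusted p 0.053). Its values at MII (-0.26, adjusted p 0.068) and L1C (-0.27, adjusted p 0.063) did not pass in edgeR. The span of *Fgfr2*, which holds *Bub3*, had a log2 IP/input of -0.06 at MII (edgeR adjusted p 0.83), -2.38 at L1C (1.9e-09) and -0.37 at L2C (0.046), and its part was not tested. *Aurkb* was below input at L2C (-0.84, edgeR adjusted p 0.00015, SE 0.15), with inputs of 111.6, 133.2 and 129.1 CPM and IPs of 78.57, 56.59 and 73.51 CPM that did not overlap. *Aurkc*, by contrast, gave 0.08, 0.14 and 0.02 at MII, L1C and L2C, with 95% confidence intervals that reach from -0.29 at the lowest to 0.44 at the highest. Whether these kinases differ from each other in IP/input was not tested. *Mad2l1*, whose transcript holds the longest 3' UTR of the 10 at 6805 bases, gave -0.07, 0.24 and 0.27 with overlapping libraries at each stage.

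The change of IP/input between stages was tested as an interaction of stage and IP over all 18 libraries. *Bub1* fell by 1.55 (log2, edgeR adjusted p 0.00033, SE 0.24) from MII to L1C and by 1.19 (edgeR adjusted p 0.0014, SE 0.24) from MII to L2C. *Incenp* fell by 0.53 from MII to L2C (edgeR adjusted p 0.029, SE 0.17), a call lost without a filter on low counts (adjusted p 0.051), with the replicate number as a block (0.075) and without MII input replicate 1 (0.075), L2C input replicate 2 (0.079), MII IP replicate 1 (0.062) or L2C IP replicate 2 (0.053) or 3 (0.055). Over all genes 3.13% were higher and 4.21% lower from MII to L1C, and 11.1% higher and 9.21% lower from MII to L2C. From L1C to L2C 0 of the 10 genes were called by edgeR, where 9.47% of all genes were, 5% higher and 4.47% lower. For that step 3 of the 10, and 24.1% of all genes, had an unadjusted P under 0.05 in edgeR (*Aurkb*, *Cdc20* and *Incenp*, all lower), and DESeq2 called 1, *Aurkb* (-0.63, adjusted p 0.017). Of *Bub1b*, the change from MII to L1C was 0.44 (edgeR adjusted p 0.11), and it passed with DESeq2 (0.42, adjusted p 0.022) and with library size alone (0.51, adjusted p 0.042). The 3 stages share libraries between these contrasts, so they are not independent.

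In the knockdown no checkpoint gene changed by more than 2-fold, where 38.4% of the 17074 genes of the 5-library fit were called with a log2 change over 1 in size. In those 5 libraries *Mad2l1*, *Cdc20*, *Aurkb* and *Incenp* rose in KD, *Ttk* fell and the other 5 did not pass, beside 30.5% of all genes higher and 36.4% lower. In the table of 6 libraries, which holds 6 of the 10 genes, *Mad2l1* and *Cdc20* rose and *Bub1*, *Bub1b*, *Mad1l1* and *Aurkc* did not pass, beside 33.5% of 7433 genes higher and 37.4% lower. Both counts rest on the edgeR test at an adjusted p under 0.05. The Ctrl libraries and KD replicates 1 and 2 are the same in both, so the fits are not independent. With library size alone the log2 change of a gene in that table shifted by a median of -0.12. CPM of the 6-library table are relative to its own genes and so are larger than those of whole libraries.

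**Figure D5:**
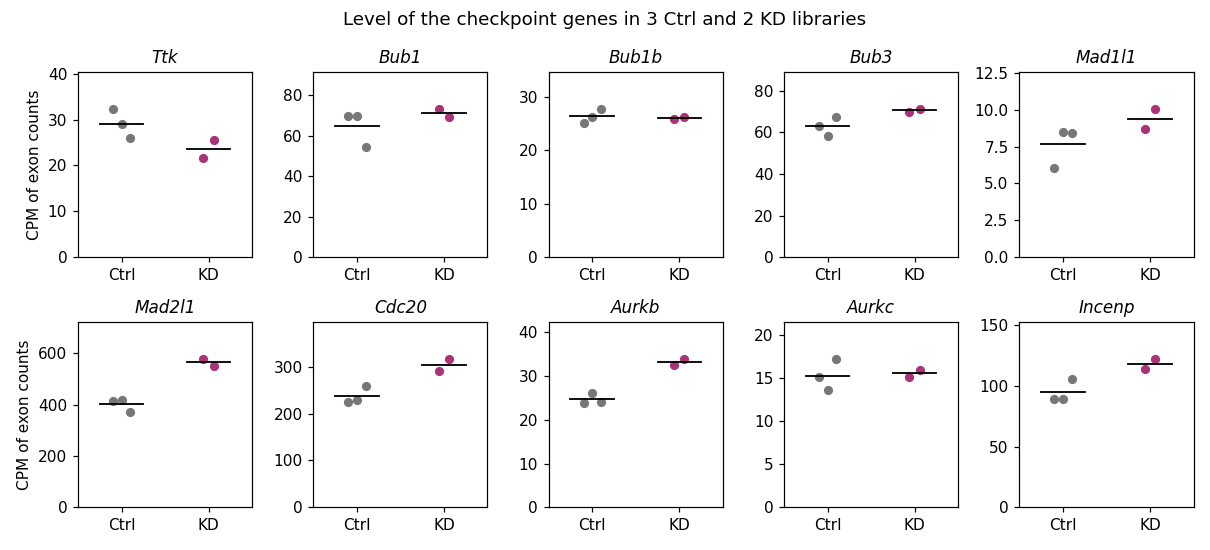
CPM of exon counts of each gene in 3 Ctrl and 2 KD L2C libraries that cover the whole annotation, with 1 point per library and a line at the mean, each panel on its own axis from 0. *Mad2l1* lies at 370.9 to 416.4 CPM in Ctrl and at 552.4 to 577.3 CPM in KD, and *Bub1b* at 25.01 to 27.7 and 25.9 to 26.22 CPM.

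*Mad2l1* held 1079, 1083 and 969.5 CPM in Ctrl and 1492, 1436 and 1482 CPM in KD in the 6-library table, without overlap. The log2 change was 0.49 (edgeR adjusted p 8.7e-07, SE 0.06), a 1.41-fold higher level. *Cdc20* held 584.0, 596.2 and 679.0 CPM in Ctrl and 748.7, 821.2 and 816.7 CPM in KD, again apart (0.36, edgeR adjusted p 0.00013, SE 0.07). *Aurkb* held 23.85, 26.11 and 23.94 CPM in 3 Ctrl libraries and 32.47 and 33.82 CPM in 2 KD libraries (0.43, edgeR adjusted p 0.0034, SE 0.11). *Incenp* held 89.25, 89.5 and 105.9 CPM in Ctrl and 114.0 and 122.2 CPM in KD (0.32, edgeR adjusted p 0.0094, SE 0.10). The 2 groups were separate for both genes, but *Incenp* did not pass without KD replicate 2 (adjusted p 0.069) or Ctrl replicate 2 (0.056). *Ttk* held 32.32, 29.09 and 25.93 CPM in Ctrl and 21.55 and 25.58 CPM in KD. It fell by 0.31 (edgeR adjusted p 0.045, SE 0.13), a call lost with DESeq2 (adjusted p 0.17) and without KD replicate 1 (0.35), Ctrl replicate 1 (0.18) or Ctrl replicate 2 (0.091). Without Ctrl replicate 2 the number of genes called in the 5-library fit was 3 in place of 5.

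*Bub1b*, which of the 10 genes changed most between MII and L1C, gave 0.02 in the 6-library table (95% confidence interval -0.20 to 0.24), with 64.93, 68.33 and 72.42 CPM in Ctrl and 66.93, 68.18 and 72.61 CPM in KD. *Aurkc* gave 0.04 (-0.23 to 0.31), *Bub1* 0.12 (-0.08 to 0.31) and *Mad1l1* 0.13 (-0.28 to 0.54) in the same table, all with overlapping groups. *Bub3* gave 0.17 (-0.04 to 0.38) in the 5-library fit. Stage markers differed between the groups as well: the summed level of the 9 oocyte transcripts was 745 to 826 CPM in KD and 1570 to 1710 in Ctrl, and that of the 6 transcripts of the 2-cell embryo 285 to 317 and 873 to 936. Whether the embryos of both groups had reached the same point of the 2-cell stage was not tested.

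The other genes of the pathway were counted in lists of 51 genes in all: partners of the checkpoint with the RZZ complex (7 genes), passenger complex and centromere (8), outer kinetochore (15) and APC/C with its E2 enzymes and targets (21). From MII to L1C 13 of the 51 rose (25.5%, beside 31.9% of all genes) and 23 fell (45.1%, beside 24.3%), with a median log2 change of -0.29 beside 0.16 over all genes. *Zwilch*, of the RZZ complex that brings MAD1 to the kinetochore, rose by 1.59 and *Zwint*, its docking partner, by 2.27, while *Cdca8*, which encodes borealin, fell by 1.00 and *Cenpf*, a kinetochore protein of the late cell cycle, by 1.58. In the APC/C list *Fzr1*, the other activator of the complex, had the largest rise (2.25) and *Espl1*, the separase that opens cohesin, the largest fall (-1.75). From L1C to L2C 26 of the 51 rose (51%, beside 44.1% of all genes) and 16 fell (31.4%, beside 38.8%), with a median of 0.48 beside 0.17. *Mad2l1bp*, the p31comet protein that takes MAD2 complexes apart, rose by 4.80 and *Zw10*, of the RZZ complex, fell by 2.34. *Ska2*, of the SKA complex that tracks microtubules, rose by 5.47 and *Nuf2*, of the complex that grips them, fell by 3.18. *Ska2* held 2 counts in each MII input and 9 to 27 at L1C, at least 4.98-fold higher against a floor of 3 counts per library. *Sgo2a*, the protector of centromeric cohesion, fell by 2.09. *Ube2c*, the E2 enzyme of the APC/C, rose by 3.10 and *Ccnb1*, the cyclin B1 that the APC/C destroys, fell by 2.81.

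In the knockdown 29 of the 51 rose (56.9%, beside 30.5% of all genes) and 10 fell (19.6%, beside 36.4%) in the 5-library fit, with a median of 0.25 beside -0.09 over all genes. *Nsl1* rose by 1.53 and *Pmf1* fell by 1.00, both of the MIS12 complex that anchors the kinetochore, and *Cdc16*, a subunit of the APC/C, rose by 1.17. *Trip13*, the ATPase that works with p31comet, rose by 0.52 and *Zw10* fell by 0.76. *Aurka*, the Aurora kinase of the spindle poles, rose by 0.69 and *Bora*, its activator, fell by 0.65. All values named here passed the edgeR test at an adjusted p under 0.05.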

How the data were processed

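Per the labels and the study's methods, SLIM-seq and RNA-seq libraries were made from small pools of oocytes or embryos. The labels name a stranded kit for total RNA, whereas the study's methods describe oligo-dT priming after Smart-seq2. For SLIM-seq the authors deposited estimated counts from kallisto over whole gene spans, introns included, and the TPM values the authors deposited beside them were not used in any test. For the knockdown the authors deposited raw counts over exons from featureCounts 2.0.1, after Trimmomatic and Hisat2, on Ensembl 99 of GRCm38. The file of KD replicate 3 and the merged table end on chromosome 7 and hold 25739 genes. Whether overlapping genes share reads was not resolved by either count.

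Estimated counts were rounded. The quasi-likelihood test of edgeR 4.0.16 (R 4.3.3), with TMM and filterByExpr, was fitted to the 9 inputs, to all 18 SLIM-seq libraries, to the 6-library table and to 5 libraries with the whole annotation, with P values adjusted over all genes tested. Fits were tested on simulated data. DESeq2 1.42.0, library size alone, no filter, the replicate number as a block, other sets of libraries, unadjusted P values and each library left out in turn were the alternatives. Positions and transcripts are from GENCODE M21 on GRCm38, where 99.47% of spans equal those of the tables. Named genes were the 10 members, listed pathway genes among those with the larger called changes, the 3 genes nearest to *Bub1b*, and *Ythdc1*. The largest change of a list was not named in every case. From MII to L1C *Zwint* was named although *Ska2*, with 2 counts in each MII input, rose by more (2.88). *Fgfr2* was named after its values were seen. The members and lists were chosen with earlier results of these data known. The labels do not say whether replicates are separate collections, so P values measure only the spread between these samples, which may be technical. Differences between replicates exceeded counting error in every group, with a chi-square per degree of freedom of at least 3.92.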

Additional observations from a re-analysis of the deposited data

Results flagged for a closer look

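The change of IP/input of *Bub1* between stages was -1.55 from MII to L1C and -1.19 from MII to L2C (log2, edgeR interaction test, adjusted p 0.00033 and 0.0014). It is listed because the IP effect of the same gene differed between stages by a test of the difference itself. The input level of *Bub1* was 20.24 ± 1.889 CPM (SD, n = 3) at MII and 55.66 ± 11.47 CPM at L1C on the scale of all 18 libraries, and the IP level 71.16 ± 13.19 and 66.96 ± 0.1459 CPM.

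The change of IP/input of *Incenp* from MII to L2C was -0.53 (edgeR interaction test, adjusted p 0.029), listed for the same reason. It did not pass without a filter on low counts, with the replicate number as a block or with any of 5 single libraries left out (adjusted p 0.051 to 0.079). Its input level was 252.8 ± 20.31 CPM at MII and 306.6 ± 40.41 CPM at L2C, and its IP level 138.8 ± 5.022 and 116.4 ± 4.754 CPM.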

How the results depend on the processing

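Of 1442 values of single genes under an alternative, 1317 kept their direction and their side of the threshold, 35 no longer passed, 24 newly passed and 66 changed sign, of which 0 concern RNA changes, 12 IP against input, 40 the change of IP/input and 14 the knockdown. None of these 66 values had passed the test in the report. The causes were not tested. Counts of checkpoint genes called stayed within 1.5 times under every alternative for the RNA changes and for IP against input. For the change of IP/input the count from MII to L1C was 1, and 2 with DESeq2 and with library size alone and 3 at unadjusted P. From L1C to L2C it was 0, and 1 with DESeq2 and in the stages compared only and 3 at unadjusted P. From MII to L2C it was 2, and 1 without a filter, 3 in the stages compared only, where *Aurkb* passed (-0.63, adjusted p 0.033), and 4 at unadjusted P, and 1 to 2 with each library left out. For the knockdown, a log2 change over 1 in size left 0 of 2 and 0 of 5 genes, and leaving out single libraries gave 3 to 5 in the 5-library fit.

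The replicate number as a block moved the count from MII to L2C of IP/input from 2 to 1, where *Incenp* no longer passed (-0.53, adjusted p 0.075), and gave *Bub1b* 0.02 in the 5-library knockdown, and *Bub3* passed there (0.22, adjusted p 0.047). Same-numbered libraries mostly did not deviate together. Correlations were over 0.1 in 3 of 9 pairs of inputs (-0.14 to 0.32) and 2 of 9 pairs of IP and input (-0.30 to 0.18). They were over 0.1 in 0 of 3 knockdown pairs (-0.04 to 0.05). The numbers were therefore not taken as pairs, although the study states that input and IP came from shared batches of RNA.

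Values that changed sign lay near 0. Under DESeq2 these were *Mad2l1* at 0.00 for IP at MII and -0.01 for IP/input from L1C to L2C, *Mad1l1* at -0.07 and *Cdc20* at -0.00 for IP/input from MII to L2C, and *Bub1b* at 0.01 in the 5-library knockdown. With library size alone they were *Mad2l1* at 0.17 for IP at MII, *Bub3* and *Aurkb* at 0.04 for IP at L1C, *Bub3* at 0.06 for IP/input from MII to L1C, *Mad2l1* at -0.02 from L1C to L2C, *Bub1* at -0.00, *Bub1b* at -0.10 and *Aurkc* at -0.08 in the 6-library knockdown and *Aurkc* at -0.04 in the other. Without a filter they were *Aurkc* at -0.02 for IP at L2C, *Mad2l1* at -0.01 from L1C to L2C and *Mad1l1* at -0.03 from MII to L2C. In the stages compared only they were *Aurkc* at -0.02 for IP at L2C and -0.03 from MII to L1C, *Ttk* at -0.04 and *Mad2l1* at -0.15 from L1C to L2C, and *Mad1l1* at -0.17 and *Cdc20* at -0.09 from MII to L2C.

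With each library left out in turn, IP against input ran from -0.20 to 0.05 for *Mad2l1* at MII and, for *Aurkc*, from -0.03 to 0.24 at L1C and from -0.10 to 0.12 at L2C. IP/input from MII to L1C ran from -0.02 to 0.22 for *Aurkb*, -0.11 to 0.17 for *Aurkc* and -0.09 to 0.06 for *Bub3*. From L1C to L2C it ran from -0.24 to 0.04 for *Aurkc*, -0.19 to 0.04 for *Bub1b*, -0.20 to 0.01 for *Mad1l1* and -0.13 to 0.19 for *Mad2l1*. From MII to L2C it ran from -0.17 to 0.05 for *Aurkc*, -0.07 to 0.20 for *Cdc20* and -0.09 to 0.11 for *Mad1l1*. In the 6-library knockdown it ran from -0.03 to 0.13 for *Aurkc*, -0.01 to 0.06 for *Bub1b* and -0.02 to 0.30 for *Mad1l1*, and in the 5-library fit from -0.06 to 0.11 for *Aurkc* and -0.05 to 0.01 for *Bub1b*.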

Other observations

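Of the other pathway genes, *Zwilch*, a subunit of the RZZ complex that brings MAD1 to the kinetochore, lay above input by 2.08 at MII (log2, edgeR adjusted p 2.8e-09) and by 0.48 at L1C (adjusted p 0.014). Its IP/input changed by -1.61 from MII to L1C (edgeR adjusted p 5e-05) and by -1.83 from MII to L2C (adjusted p 4.7e-06). *Kntc1*, another subunit of RZZ, lay below input by 1.92 at MII, and its IP/input rose by 2.11 from MII to L2C (adjusted p 3.6e-07). *Espl1*, the separase that the checkpoint holds back, had the lowest log2 IP/input of the APC/C list at each stage, with -2.93, -2.08 and -2.10 at MII, L1C and L2C. In all, 12 of the 51 pathway genes were lower and 7 higher in IP/input at L2C than at MII, beside 9.21% lower and 11.1% higher over all genes.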
